A study of Homo sapiens with 12 samples.

Results

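The genes described here are the zinc finger (ZNF) genes of chromosome 19, taken as the protein-coding genes of that chromosome whose symbol is ZNF followed by a number and, in some, a letter. There were 246 of them among 20136 protein-coding genes on chromosomes 1 to 22, X and Y (GENCODE release 44 on GRCh37, the hg19 build). A further 1234 genes of chromosome 19 and 262 ZNF genes of other chromosomes, picked by the same symbol rule, served for comparison. The measure was H3K4me3, a histone mark of active promoters, profiled by CUT&RUN, in which an antibody directs a nuclease to chromatin and the released fragments are sequenced. The cells were BON1, an established line from a human pancreatic neuroendocrine tumor. Control cells (BON1/TGL/pQ) were set against BON1/TGL/HA-Bcl-xL cells, which overexpress an epitope-tagged form of the anti-apoptotic protein Bcl-xL, and both were grown in puromycin and share the TGL element of their names. Bcl-xL was thus raised by a transgene in a single line. Of H3K4me3, the peak lists of 3 control libraries (replicates 1, 2 and 3) and 2 HA-Bcl-xL libraries (replicates 2 and 3) were used, and of a rabbit anti-mouse IgG, the background measure, those of 3 libraries per line. The first HA-Bcl-xL replicate with H3K4me3 was not analysed here. Values given for all 5 H3K4me3 libraries are in that order, control first. Nothing in the labels says whether replicates came from separate cultures, so p-values measure the spread between these libraries only.

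Most ZNF genes of chromosome 19 arose by tandem duplication and lie side by side in clusters. Many encode a KRAB domain, which recruits the corepressor TRIM28 and, through it, the histone methyltransferase SETDB1, and arrays of zinc fingers that bind DNA, often within transposable elements. Several of these clusters are known in other cells for heterochromatin over the zinc finger exons, while the promoters at the opposite ends of the same genes can carry H3K4me3.

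A gene was called in a library when a deposited peak lay, by at least 1 bp, within 1 kb of its most 5′ annotated end. The 200 bases before that end are shown for 11 members, read from GRCh37 in the direction of transcription, 5′ to 3′, with no annotated exon inside them. Capitals mark exact matches on either strand to the motifs searched: ETS (CCGGAAGT), NRF1 (GCATGCGC), SP1 (GGGCGG), YY1 (AAGATGGCG), CRE (TGACGTCA), NFY (CCAAT), Kaiso (CTCGCGAG) and ZNF143 (ACAATTCC). Neighbouring or overlapping matches run together. ZNF564 (chr19:12662357-12662556, minus strand) had the most bases under promoter peaks, and ZNF615 (chr19:52511484-52511683, minus) and ZNF66 (chr19:20958910-20959109, plus) led the members of their clusters called in all 5 H3K4me3 libraries by peak rank. ZNF440 (chr19:11924888-11925087, plus) was called in all 5 H3K4me3 libraries and its neighbour ZNF439 (chr19:11959341-11959540, plus) in none, and ZNF91 (chr19:23578274-23578473, minus) was an uncalled gene of the cluster of ZNF66. ZNF180 (chr19:45004577-45004776, minus) and ZNF460 (chr19:57791219-57791418, plus) hold ETS matches, and ZNF180 a ZNF143 match as well. ZNF554 (chr19:2819666-2819865, plus), ZNF284 (chr19:44576112-44576311, plus) and ZNF600 (chr19:53290061-53290260, minus) were called in HA-Bcl-xL libraries alone.
ZNF564: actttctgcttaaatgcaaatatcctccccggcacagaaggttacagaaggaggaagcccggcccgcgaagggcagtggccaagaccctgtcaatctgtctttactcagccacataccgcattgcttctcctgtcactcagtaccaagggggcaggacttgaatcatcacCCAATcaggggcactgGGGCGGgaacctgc
ZNF440: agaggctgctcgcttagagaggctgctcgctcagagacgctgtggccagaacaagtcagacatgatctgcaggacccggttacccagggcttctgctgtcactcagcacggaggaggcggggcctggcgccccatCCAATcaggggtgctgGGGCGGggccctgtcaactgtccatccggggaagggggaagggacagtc
ZNF439: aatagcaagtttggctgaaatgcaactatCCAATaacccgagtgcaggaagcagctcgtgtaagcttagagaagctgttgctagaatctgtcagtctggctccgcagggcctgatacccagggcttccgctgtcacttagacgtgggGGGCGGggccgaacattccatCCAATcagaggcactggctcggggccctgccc
ZNF66: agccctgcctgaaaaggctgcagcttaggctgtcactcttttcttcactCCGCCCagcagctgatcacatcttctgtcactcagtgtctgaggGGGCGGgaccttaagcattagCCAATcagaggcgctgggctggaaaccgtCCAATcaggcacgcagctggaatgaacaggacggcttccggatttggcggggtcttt
ZNF91: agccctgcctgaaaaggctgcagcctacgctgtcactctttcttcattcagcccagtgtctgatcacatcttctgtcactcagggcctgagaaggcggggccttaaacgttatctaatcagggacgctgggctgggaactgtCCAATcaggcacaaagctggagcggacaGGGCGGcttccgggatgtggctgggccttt
ZNF180: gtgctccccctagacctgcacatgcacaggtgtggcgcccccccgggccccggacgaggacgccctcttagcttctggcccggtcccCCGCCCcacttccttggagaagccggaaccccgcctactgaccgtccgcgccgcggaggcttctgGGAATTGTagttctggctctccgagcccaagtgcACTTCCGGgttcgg
ZNF615: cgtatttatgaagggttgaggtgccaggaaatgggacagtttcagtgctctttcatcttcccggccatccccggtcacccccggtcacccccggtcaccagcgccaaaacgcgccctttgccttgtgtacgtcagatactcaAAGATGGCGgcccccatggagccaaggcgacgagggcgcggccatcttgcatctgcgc
ZNF460: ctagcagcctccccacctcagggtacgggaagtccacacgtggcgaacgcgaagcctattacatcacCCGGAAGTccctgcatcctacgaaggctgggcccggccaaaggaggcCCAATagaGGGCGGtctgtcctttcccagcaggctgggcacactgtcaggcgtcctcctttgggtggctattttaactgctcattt
ZNF554: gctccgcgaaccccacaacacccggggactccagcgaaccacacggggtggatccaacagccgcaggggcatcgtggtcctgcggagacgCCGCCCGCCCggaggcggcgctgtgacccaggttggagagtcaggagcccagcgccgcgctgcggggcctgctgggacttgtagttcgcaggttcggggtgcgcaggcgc
ZNF284: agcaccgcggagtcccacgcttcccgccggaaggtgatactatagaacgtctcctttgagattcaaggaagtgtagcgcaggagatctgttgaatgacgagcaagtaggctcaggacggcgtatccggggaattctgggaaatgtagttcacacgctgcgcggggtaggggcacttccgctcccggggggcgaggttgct
ZNF600: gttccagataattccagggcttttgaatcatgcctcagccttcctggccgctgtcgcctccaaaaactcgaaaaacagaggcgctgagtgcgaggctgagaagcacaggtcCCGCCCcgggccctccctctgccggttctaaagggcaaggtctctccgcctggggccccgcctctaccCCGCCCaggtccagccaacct

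ZNF66 and ZNF91, 5 libraries against none, had 172 identical bases over a global alignment of 203 positions (84.7%), and both carry an NFY and an SP1 match. The pair ZNF440 and ZNF439 aligned with 56.5% identity, little above the 52.1% of ZNF66 and ZNF615, which belong to different clusters. These pairs were chosen after their calls were seen.

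Promoter peaks were found at fewer than 1 in 2 of the members in every library. In control replicates 1, 2 and 3, 117, 92 and 88 of the 246 members were called (47.56%, 37.40% and 35.77%). The counts in the HA-Bcl-xL libraries were 113 and 115 (45.93% and 46.75%). The share over all protein-coding genes in the same libraries was 40.4%, 32.4% and 28.2% in control and 38.1% and 36.5% in HA-Bcl-xL. Both HA-Bcl-xL values lay inside the range of the control values. The means were 40.24% ± 6.389 (SD, n = 3) and 46.34% ± 0.5749 (SD, n = 2), a difference of 6.098 percentage points that did not exceed the spread between libraries (two-sided exact permutation test, p = 0.6, smallest possible 0.2). Control replicate 1 sets much of that spread: without it the difference was 9.756 points, without control replicate 3 it was 3.862, and with each list cut to the length of the shortest it was 1.897. Set against the other chromosome 19 genes, the members' excess was 3.964 points larger in HA-Bcl-xL than in control (exact permutation test, two-sided, p = 0.2, the smallest possible), and 2.179 points larger without HA-Bcl-xL replicate 3. With ZNF genes of other chromosomes as the reference the difference was 1.581 points (p = 0.6 by the same exact test).

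IgG peaks were nearly absent from these promoters. Control IgG replicate 1 had a peak at 2 members, ZNF470 and ZNF416, and the other 5 IgG libraries at none, where a count of 0 of 246 allows a share of up to 1.22% taken as 3 counts, or 1.538% as the upper 95% Wilson bound. Over all genes, 0.785% had an IgG peak in at least 1 library. H3K4me3 exceeded IgG by 39.97 points in control cells (two-sided exact permutation test, p = 0.1, the smallest possible for 3 against 3) and by 46.34 points in HA-Bcl-xL cells (p = 0.2 by the same exact test, the smallest possible there).

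**Figure D1:**
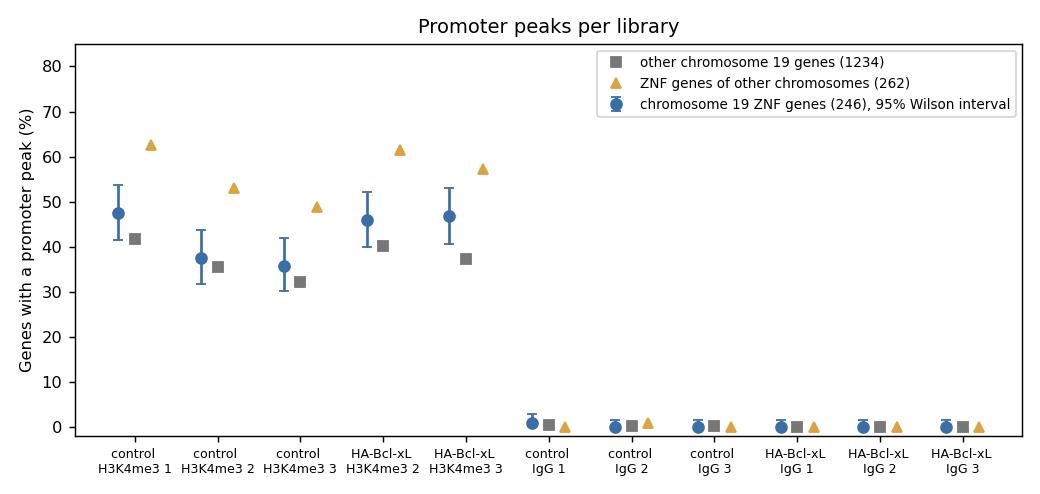
Share of genes with a promoter peak (y axis, %) in each of the 11 libraries (x axis), for the 246 members with the 95% Wilson interval, which covers counting of genes only, and as points for the other chromosome 19 genes and the ZNF genes of other chromosomes. In all 5 H3K4me3 libraries the members lie above the other chromosome 19 genes and below the ZNF genes elsewhere, and in IgG all 3 sets lie at or near 0.

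Within each library, the share of members called lay above that of other chromosome 19 genes and below that of ZNF genes elsewhere. The excess over other chromosome 19 genes was 5.827, 1.823 and 3.520 points over the control libraries and 5.903 and 9.471 points over the HA-Bcl-xL libraries, with a mean of 5.309 (two-sided exact sign-flip test over 5 libraries, p = 0.063, the smallest possible). The excess was 11.65 points when genes with a divergent coding neighbour within 1 kb were left out, and 1.798 points with promoters of 2.5 kb on either side (exact sign-flip p = 0.1875). ZNF genes of other chromosomes were called in 48.85% to 62.60% of cases per library, and the members differed from them by -13.96 points on average, lower in 5 of 5 libraries (two-sided exact sign-flip p = 0.063, a comparison chosen after the data were seen). Sequence that occurs only once differed too: a median of 88.8% of the 31-base words around a member's 5′ end were unique in GRCh37, against 96.3% for ZNF genes elsewhere and 91.2% for other chromosome 19 genes. The part of this in the difference was not tested.

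A total of 71 members were called in all 5 H3K4me3 libraries (28.9%), where 21.3% of all genes were, and 136 in at least 1 (55.3%), where 48.2% of all genes were. The remaining 110 were called in none. Calls in all 5 libraries or in none made up 73.6% of members, near the 73.1% of all genes. Between these, 17, 13, 13 and 22 members were called in 1, 2, 3 and 4 libraries. Other chromosome 19 genes reached 25.61% in all 5 and ZNF genes elsewhere 37.79%.

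Along the chromosome the members fell into 21 groups separated by more than 500 kb, of which 10 held at least 5 members and 232 in all. The other 11 groups held 14 members, 6 of them called in every H3K4me3 library. Among the 10 clusters, the share called in all 5 libraries ran from 5.41% to 60%.

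**Figure D2:**
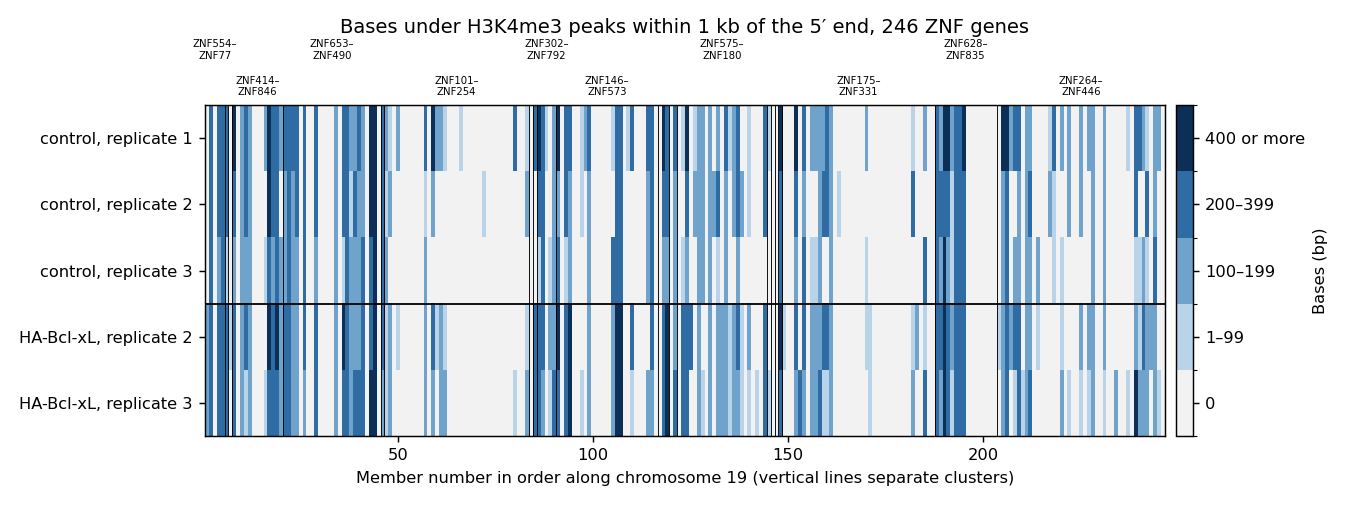
Each column is a member, in order along chromosome 19 (x axis, member number), each row an H3K4me3 library, and the colour gives the bases under promoter peaks (bp). Vertical lines separate the groups, and clusters of at least 5 members are named by their first and last gene. Runs of blank columns stand in the ZNF101 to ZNF254 and ZNF175 to ZNF331 clusters, where 25 of 37 and 23 of 39 members were called in no library.

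The ZNF653 to ZNF490 cluster (chr19:11616654-12750912) split into 15 members called in every one of the 5 libraries and 10 called in none, with no member between. Of these 10, ZNF709 and ZNF490 had a peak at another annotated 5′ end in all 5 libraries, which gives 17 called in all. With promoters of 500 bp on either side, or with lists of equal length, 13 were called in all 5 libraries. ZNF136, ZNF44, ZNF563, ZNF442, ZNF799 and ZNF443, 6 consecutive genes over 278 kb, were all called in every library. The leader of a cluster is taken here as the member with the highest rank among those called in all 5 libraries. ZNF791 led the cluster and all named cluster leaders, with a mean percentile rank of 98.99 for the deposited −log10 p of its best promoter peak within each list. Its peaks covered 557, 431, 412, 407 and 400 bp in the 5 libraries. ZNF564 had 532, 510, 327, 399 and 560 bp, the most of all members on average. ZNF440 had 268, 272, 287, 250 and 197 bp, whereas ZNF439, whose 5′ end lies 34.5 kb away and has the same GC share (56.6%), had none within 34350 bp. Members elsewhere with a GC share in this cluster's interquartile range were called in all 5 libraries in 5 of 25 cases (20.0%), against 60% inside it.

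The ZNF101 to ZNF254 cluster (chr19:19779605-24216207), which flanks the centromere on the short arm, stood at the other end. Only 2 of its 37 members were called in all 5 libraries and 12 in any, with 11, 6 and 2 members in control replicates and 9 and 8 in HA-Bcl-xL. The 7 consecutive genes from ZNF492 to ZNF91 (761 kb) and the 6 from ZNF93 to ZNF626 (833 kb) were called in no library. ZNF91, a repressor of SVA retroelements, had its nearest H3K4me3 peak 291223 bp away, ZNF208 225872 bp, ZNF257 267353 bp and ZNF99 191100 bp. ZNF676 was the most remote member, 317111 bp from any peak. ZNF66 was the leader, with 302, 90, 188, 168 and 156 bp at a mean rank of 71.50, while ZNF430, called in 4 libraries, had 75.99 over those 4. Without control replicate 3, whose list was the shortest, 5 members were called in every library. Of 42 members elsewhere in this cluster's interquartile GC range, 26.2% were called in all 5 libraries. Of 30 in its interquartile range of unique words, 26.7% were. The 5.41% here is over all 37 members, in those ranges or not. Both members called in all 5 libraries, ZNF66 (GC share 47.4%) and ZNF101 (59.7%), lie outside that GC range of 47.7% to 50.9%. Over all members, those with 50 to 80% unique words were called in all 5 libraries in 18.64% of cases, those with 80 to 95% in 31.73% and those above in 32.93%. These shares include the members of this cluster, many of them in the lowest of these ranges, so they are not a comparison apart from it. The median share of unique words was 77.2% here, the lowest of the 10 clusters.

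The ZNF175 to ZNF331 cluster (chr19:52074536-54022781) had 4 of 39 members called in all 5 libraries (10.3%) and 16 in any, and 7 in all when control replicate 2 or 3 was left out. The 10 consecutive genes from ZNF28 to ZNF677 (397 kb) and the 6 from ZNF528 to ZNF83 were called in none. ZNF615 led it, with summits at most 25 bp from the 5′ end in every library and 251, 123, 213, 307 and 107 bp under peaks. ZNF331, an imprinted gene, was not called at its most 5′ end and had a peak at another annotated 5′ end in 2 libraries. Of the 15 other genes between these members, 1 was called in any library, where 48.2% of all genes were. In the ZNF414 to ZNF846 cluster, with 9 of 13 members called in any library, it was also 1 of 15. The other genes were called in 4 of 24 cases in ZNF628 to ZNF835 and 0 of 3 in ZNF101 to ZNF254. They were called in 8 of 14 in ZNF575 to ZNF180 and 11 of 22 in ZNF264 to ZNF446. In ZNF653 to ZNF490 it was 6 of 13, and in ZNF146 to ZNF573 3 of 6.

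In the ZNF628 to ZNF835 cluster (chr19:55987984-57183151) the calls at the most 5′ ends changed over at a single place. The first 8 members, ZNF628, ZNF579, ZNF524, ZNF865, ZNF784, ZNF580, ZNF581 and ZNF787, were called in every library, and the next 8, ZNF444, ZNF582, ZNF583, ZNF667, ZNF471, ZNF470, ZNF71 and ZNF835, in none. ZNF787 and ZNF444, either side of the change, start 11.3 kb apart. ZNF444 had a peak at another annotated 5′ end in all 5 libraries, so the place of the change rests on the 5′ end used, and 9 members of the cluster were called in all 5 libraries with any annotated 5′ end. ZNF524, which encodes a protein of telomeres, had 493, 377, 412, 581 and 459 bp, and ZNF865 had 449, 312, 107, 226 and 249 bp with summits 737 to 755 bp into the gene.

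The last cluster before the telomere, ZNF264 to ZNF446 (chr19:57702868-58985384), had 10 of 43 members called in all 5 libraries (6 with peaks of a −log10 q of at least 5) and 27 in any. ZNF17 led it, with 128, 143, 149, 188 and 176 bp. ZNF460, with 558, 291, 376, 398 and 304 bp, was among the 5 members with the most bases, at the same mean as ZNF780A, which is not counted among the 5. ZNF8 was called in every library, with 287, 261, 80, 175 and 434 bp. ZNF274, which binds the zinc finger exons of other ZNF genes and recruits SETDB1, was called only in control replicate 1 (80 bp) and HA-Bcl-xL replicate 3 (87 bp), from 5 and 3 fragments at the summit, at a mean rank of 9.85. In the ZNF575 to ZNF180 cluster (chr19:44029649-45004576), 18 of 23 members were called in at least 1 library and 6 in all. Its count in all 5 libraries was 1 with peaks of a −log10 q of at least 5 and 9 without control replicate 3. ZNF428 led it, with 510, 277, 165, 251 and 226 bp at a mean rank of 80.22, while ZNF234, called in 4 libraries, had 90.87 over those 4.

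The ZNF146 to ZNF573 cluster (chr19:36705504-38307940) had 7 of 26 members called in all 5 libraries (11 with any annotated 5′ end) and 13 in any, with ZNF607 in front (218, 249, 234, 367 and 125 bp). ZNF568, whose mouse counterpart represses a placental Igf2 transcript, ZNF382 and ZNF420, a negative regulator of p53, were not called at their most 5′ ends. ZNF420 had a peak at another annotated 5′ end in 4 libraries. The ZNF414 to ZNF846 cluster (chr19:8579051-9903856) had 7 of 13 members called in all 5 libraries, or 4 with lists of equal length. ZNF562 led it, with 324, 283, 290, 406 and 313 bp, and ZNF121 had 574, 563, 239, 544 and 304 bp. The 2 clusters of 5 members, ZNF554 to ZNF77 (chr19:2819866-2944969) and ZNF302 to ZNF792 (chr19:35168544-35455133), each had 3 called in all 5 libraries. ZNF555 led the first (255, 262, 320, 291 and 296 bp), which also holds ZNF57 (260, 246, 175, 235 and 289 bp), and ZNF181 led the second (243, 269, 245, 256 and 141 bp).

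**Figure D3:**
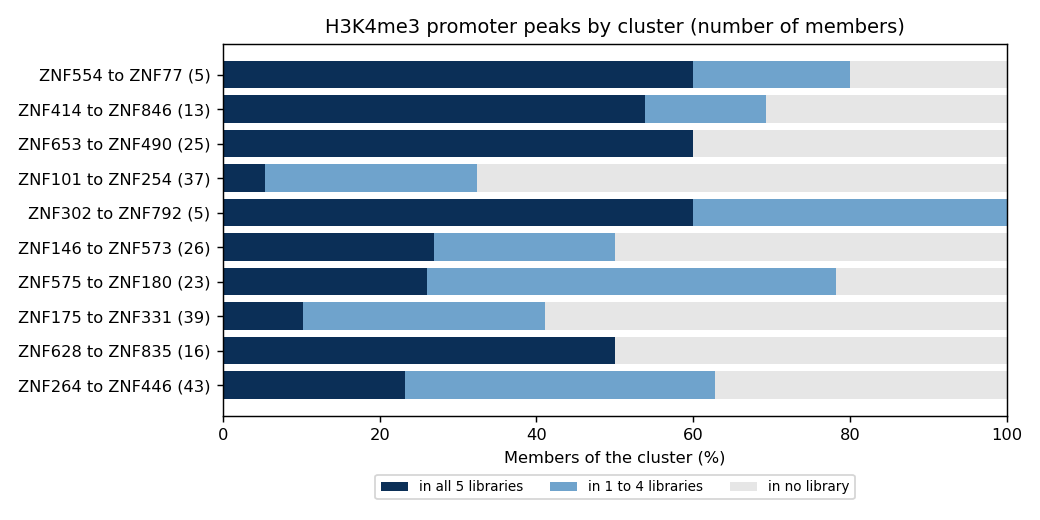
Share of members (x axis, %) called in all 5, in 1 to 4, or in no H3K4me3 library for each of the 10 clusters (y axis, number of members in brackets). The ZNF101 to ZNF254 cluster has the smallest share in all 5 libraries (5.41%), and 3 clusters stand at 60%.

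By line, cluster counts were described and not tested. In 7 of the 10 clusters the control and HA-Bcl-xL counts overlapped. In ZNF554 to ZNF77 (3, 3 and 3 in control, 4 and 4 in HA-Bcl-xL), ZNF575 to ZNF180 (13, 13 and 8, then 14 and 15) and ZNF175 to ZNF331 (11, 8 and 8, then 14 and 12) they did not. With lists of equal length the last 2 overlapped. The order of the mean counts then turned in ZNF264 to ZNF446 (22, 14, 16 and 20, 21 as deposited; 18, 13, 16 and 12, 17 with equal lengths), ZNF414 to ZNF846 (9, 7, 9 and 8, 9; then 6, 7, 9 and 8, 6) and ZNF146 to ZNF573 (13, 9, 9 and 9, 11; then 10, 9, 9 and 9, 10), and the ZNF653 to ZNF490 cluster had 15, 15 and 15 in control against 14 and 14 in HA-Bcl-xL.

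Single members that separated the lines were few. ZNF554, ZNF284 and ZNF600, 3 of 246, had a peak in each HA-Bcl-xL library and none in control, a pattern held by 0.844% of all genes. ZNF554 had 113 and 157 bp in HA-Bcl-xL replicates 2 and 3, ZNF284 168 and 113 bp, and ZNF600 79 and 73 bp, from 8 and 7, 5 and 6, and 7 and 4 fragments at the summit. ZNF416 alone was called in all 3 control libraries (245, 93 and 80 bp, from 7, 8 and 7 fragments) and in no HA-Bcl-xL library, a pattern held by 0.248% of all genes. Its peak is shared with ZIK1, a zinc finger gene that starts nearby. Control IgG replicate 1 had a peak of 88 bp within 1 kb of the same 5′ end. With H3K4me3 peaks that overlap IgG peaks removed, ZNF416 was still called in 3 libraries. The HA-Bcl-xL-only count was 1 with lists of equal length, 5 with promoters of 500 bp on either side, 7 without HA-Bcl-xL replicate 2, and 9 without control replicate 1 or without HA-Bcl-xL replicate 3. The control-only count was 3 without control replicate 3 or without HA-Bcl-xL replicate 3.

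Bases under promoter peaks differed between the lines at no member by the adjusted threshold. For the 4289 genes called in all 5 libraries, 71 of them members, widths were compared with limma on log2 bases, each library centred on its median. No member passed an adjusted p of 0.05 (limma with Benjamini-Hochberg adjustment, lowest adjusted p among members 0.953), and 0% of all genes did. At an unadjusted p under 0.05 stood 1 member and 4.90% of all genes. The median log2 difference, HA-Bcl-xL minus control, was -0.06 over members and -0.02 over all genes, and 0.07 and 0.10 without centring. In a simulation of this test with 4289 genes, 10% of genes changed by 1 on the log2 scale and 83% of those changed by 2 were recovered, with 6 false calls. ZNF260 differed most, with 281, 194 and 142 bp against 459 and 440 bp (log2 difference 1.06, SE 0.388, limma adjusted p = 0.953). Bases were higher in both HA-Bcl-xL libraries than in all control libraries at 5 of the 71 members (7.04%, against 10.6% of all genes), ZNF260, ZNF780A, ZNF585B, ZNF383 and ZNF17, of which ZNF585B and ZNF383 share a peak and its values, and lower at 3 (4.23%, against 5.62%), ZNF480, ZNF440 and ZNF791. Both shares are below those of all genes, but they rest on 5 and 3 members, so no difference is read from them. ZNF780A had 396, 361 and 118 bp against 652 and 400 bp. ZNF136 had 228, 230 and 84 bp against 418 and 216 bp. In the other direction ZNF480 had 179, 174 and 180 bp against 112 and 113 bp (log2 difference -0.79, SE 0.410, limma adjusted p = 0.981). ZNF805 had 508, 171 and 197 bp against 195 and 155 bp, and ZNF613 412, 395 and 179 bp against 313 and 146 bp.

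**Figure D4:**
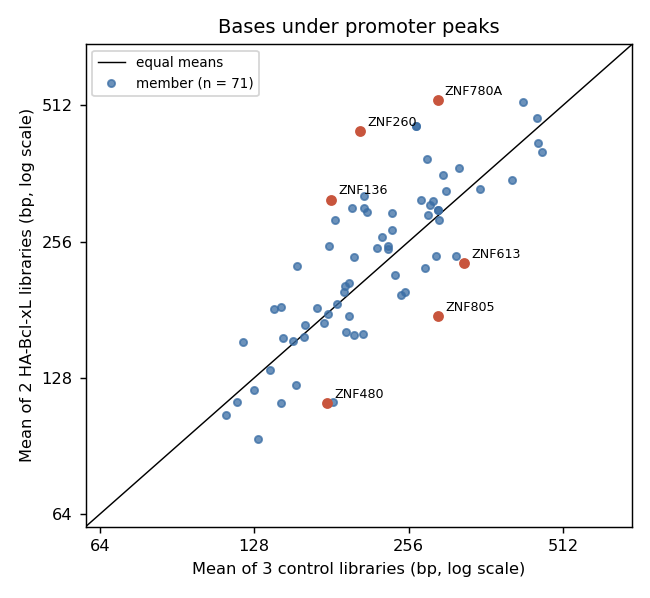
Mean bases under promoter peaks in the 3 control libraries (x axis, bp, log scale) and the 2 HA-Bcl-xL libraries (y axis, bp, log scale) for the 71 members called in all 5 libraries, with a line of equal means. The 6 named members had the smallest limma p in each direction, and none passed the adjusted threshold.

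Where a member was called, the summit of its strongest peak sat close to the 5′ end. It lay within 250 bp in 70.09%, 69.57% and 68.18% of called members in control and 62.83% and 66.09% in HA-Bcl-xL, against 48.74% to 53.02% of called genes elsewhere on chromosome 19. The mean difference was 16.09 points, in the same direction in 5 of 5 libraries (two-sided exact sign-flip test, p = 0.063, the smallest possible, chosen after the data were seen). Median summit positions were between 24 bp before and 0 bp from the 5′ end. Among the cluster leaders, ZNF791, ZNF865, ZNF428 and ZNF181 had every summit outside this band, ZNF181 at 255 to 266 bp before the 5′ end, and ZNF607 and ZNF562 had summits outside it in 4 and 3 libraries.

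**Figure D5:**
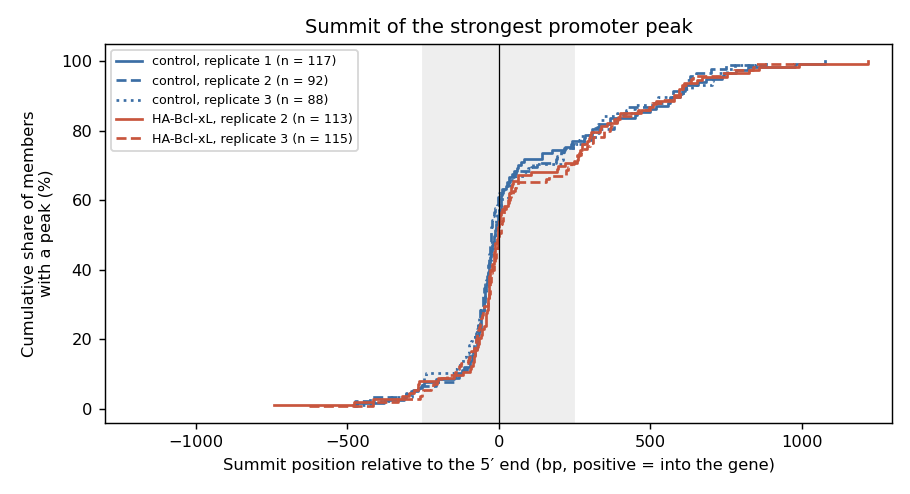
Cumulative share of called members (y axis, %) by the position of the summit of the strongest promoter peak relative to the 5′ end (x axis, bp, positive into the gene), 1 line per H3K4me3 library. The shaded band spans 250 bp on either side, and all 5 lines rise most steeply inside it.

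The choice of 5′ end left out some marked genes. Of the 110 members called in no library, 24 had a peak at another annotated 5′ end in at least 1 library, 11 of them in all 5. With any annotated 5′ end, 83 members were called in all 5 libraries (33.7%, against 26.5% of all genes) and 160 in at least 1 (65.0%, against 56.6%). Of the same 110, 92 had no peak within 10 kb of the most 5′ end, and the median distance to the nearest was 33.4 kb. Of 136 called members, 30 shared a promoter peak with another coding gene (22.1%, against 30.5% of all called genes), among them the pairs ZNF383 and ZNF585B, ZNF432 and ZNF841, and ZNF580 and ZNF581. At the other end of the genes, 3 of 219 members (ZNF728, ZNF613 and ZNF677) had an H3K4me3 peak in their last 2 kb in at least 1 library (1.37%), near the 1.23% of all genes.

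The sequence around the 5′ ends was described without a test. The median GC share within 1 kb on either side was 52.1% for members, 58.2% for other chromosome 19 genes and 55% for all genes. Members called in all 5 libraries had a median of 54.3% and those called in none 51.5%. Within 250 bases before to 50 after the 5′ end, the ETS motif was found in 18.7% of members and 5.07% of all promoters, NFY in 52.8% and 35.8%, ZNF143 in 4.47% and 0.899%, SP1 in 60.6% and 52.2%, and YY1 in 2.44% and 1.87%. ZNF genes elsewhere held ETS in 11.5% and NFY in 41.2%, and other chromosome 19 genes held SP1 in 59.4%. NRF1 stood at 4.47% and 3.76%, CRE at 2.85% and 2.28%, and Kaiso at 0.813% and 1.19%.

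The shares of promoters with a motif ranged widely over clusters, with no test of the differences. NFY was found in 36 of 37 members of the ZNF101 to ZNF254 cluster (97.3%), where 2 were called in all 5 libraries, and in 19 of 25 of the ZNF653 to ZNF490 cluster, 11 of which were. ETS was found in 23 of 43 members of the ZNF264 to ZNF446 cluster (53.5%), 6 of them called in all 5 libraries, and in 0 of 37 of the ZNF101 to ZNF254 cluster. CRE was found in 5 of 13 members of the ZNF414 to ZNF846 cluster and in 2 members of the other 9 clusters together, both in ZNF264 to ZNF446. By call, ETS stood at 18.3% of members called in all 5 libraries, 29.2% of those called in 1 to 4 and 12.7% of those called in none, while NFY stood at 54.9%, 47.7% and 54.5%. SP1 stood at 64.8%, 53.8% and 61.8%. The rarer YY1 was found in 5, 0 and 1 members of these 3 sets (7.04%, 0% and 0.909%). CRE was found in 4, 2 and 1 (5.63%, 3.08% and 0.909%), and ZNF143 in 1, 7 and 3 (1.41%, 10.8% and 2.73%). These differences were not tested. Paralogs share sequence by descent, so members are not independent of each other.

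The corepressor genes through which KRAB proteins act were described from a list of 23. Called in all 5 libraries were 5 of them (21.7%, against 21.3% of all genes): TRIM28, SETDB1, the heterochromatin protein gene CBX1, MPHOSPH8 of the HUSH complex, and SMARCAD1. In at least 1 library 14 of the 23 were called, where 48.2% of all genes were. CBX3, CHD3, ATRX and ZFP57 had no peak at any annotated 5′ end. Of 5 neuroendocrine marker genes, CHGB was called in all 5 libraries, SYP in 2, CHGA in 1, and INSM1 and ENO2 in none. PTPRC, HBB and ALB, markers of other cell types, were called in none.

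The lists differ in depth. They held 10247 (control replicate 3) to 17711 (control replicate 1) H3K4me3 peaks. A relative depth, the lowest background solved from each list's fold and p, was 0.0659, 0.0705 and 0.0478 in control and 0.0692 and 0.0681 in HA-Bcl-xL. Peaks at members rested on a median of 8 to 11 fragments, so an uncalled promoter is one with no detectable peak at this depth. In these bulk libraries, a mark in fewer cells and less of it per cell cannot be told apart.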

How the data were processed

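H3K4me3 and IgG CUT&RUN peak lists of 11 libraries were used. Per the submitters' processing notes the tools were bcl2fastq 2.20, Trimmomatic 0.36, Bowtie2 2.2.9, MACS2 2.1.1 and deepTools 3.5.1, with hg19; their settings are not given in the sources used here. Each deposited list gives, for peaks called per library, the authors' score, fold enrichment, −log10 p and −log10 q values, and no read totals. No list held a q above 0.00997. Scores were not used, and −log10 p ranked peaks within a list only. Fragments at summits and the background were solved from the deposited fold and −log10 p, to within 0.001.

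Promoters were 1 kb on either side of the most 5′ annotated end. Shares of called members were compared by two-sided exact permutation over libraries, and gaps within libraries by exact sign-flip tests (scipy 1.17.1). Widths went through limma 3.58.1 (R 4.3.3), a step checked on simulated data. Other software was Python 3.11.15 with pandas 2.3.3, numpy 2.4.6 and matplotlib 3.10.9. Motifs were exact matches on both strands. Genes named were cluster leaders by mean rank among members called in all 5 H3K4me3 libraries, members separating the lines, the 5 with the most bases, the 3 with the smallest width p in each direction and 12 listed for a known role; others (ZNF430, ZNF234, the sequence pairs, stretches, and genes with peaks at their last 2 kb) were chosen after values were seen. The members, lists and motifs were chosen with earlier results of these data known. The alternatives tried were peaks with −log10 q of 5 or more, other promoter windows, any transcript, 50 bp of overlap, equal list lengths, removal of peaks overlapping IgG peaks, GC range, divergent neighbours, other cluster gaps, centring, a replicate block, and each library left out in turn. Wilson intervals treat each gene as 1 independent count, which paralogs are not. Solved fragments can include PCR copies.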

Additional observations from a re-analysis of the deposited data

How the results depend on the processing

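No difference in shares over all members changed sign under any alternative; in 3 clusters the order of the lines' mean counts turned with equal list lengths, and the median width difference did without centring. The exact tests could not reach 0.05 in this design, so their p-values say nothing about stability, and the sizes are given instead. Among the counts of members, 3 under other settings and 5 with 1 library left out moved by over 1.5 times. The count of members with a peak in each HA-Bcl-xL library and none in control, 3 as reported, was 1 with a −log10 q of at least 5, 5 with 500 bp on either side and 1 with equal list lengths. It ranged from 4 to 9 with 1 library left out, and the control-only count from 1 to 3. The causes were not tested. The excess over other chromosome 19 genes ranged from 1.798 to 11.65 points, and the shortfall against ZNF genes elsewhere from -7.853 to -15.58. The number of members called in all 5 libraries ranged from 55 to 83. Cluster counts moved in 6 of 70 cases under other settings and in 3 of 50 with 1 library left out, and the number of clusters of at least 5 members was 13 at 250 kb and 9 at 1 Mb.

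Same-numbered libraries showed no pairing in log2 width: their deviations from the mean of their line correlated at 0.0256 (replicate 2) and 0.048 (replicate 3) over 4289 genes. The 2 HA-Bcl-xL libraries deviate from their mean by equal and opposite amounts, so these are not 2 separate checks. Whether same-numbered libraries were prepared together cannot be told from them. With a replicate block over the 2 shared numbers the HA-Bcl-xL minus control difference was 9.756 points (exact sign-flip p = 0.5), the difference in the excess over other chromosome 19 genes 5.015, and the widths gave 13 calls over all genes, 0 of them members. H3K4me3 minus IgG was 39.97 and 46.34 points under the block. A promoter with no peak in a list counts as uncalled whatever the list's depth, whose part in the calls was not tested, and the exact permutation test of 2 against 3 libraries allows no p below 0.2.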
